A study of Mus musculus with 12 samples.

Results

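Endothelial cells carry the adhesion molecules by which blood leukocytes attach to a vessel wall, and 10 of these genes were read here cell type by cell type: Vcam1, Icam1, Icam2, Sele, Selp, Ackr1, Vwf, Pecam1, Cdh5 and Madcam1. The genes were chosen by name, out of 32245 gene symbols in the files, and not by a cutoff on a measured value. Earlier results of these data were known when they were chosen. The data were single-cell RNA counts of mouse aorta, with 1 gene expression library for each of 4 groups, each made from 6 pooled aortas. All 4 groups were described as male C57BL/6J ApoE-/- mice, aged 8 weeks at the start and followed for 24 weeks. The group labelled Healthy had a normal diet and saline. The other 3 groups had a diet with 1% cholesterol and 10% fat, together with saline (AS, atherosclerosis), with the carbonic anhydrase inhibitor MTZ from week 13 (MTZ-treated) or with MTZ for all 24 weeks (MTZ-preventive), at 25 mg/kg by stomach tube on every other day. The sample labels spell the drug methoxazolamide and the study's methods methazolamide. A pool of aortas is 1 sample, so variation among mice is unknown, differences between groups were not tested, and no p-value is given.

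Apoe, the gene disrupted in this strain, went against the label of one library, which is called the library labelled Healthy for that reason. Levels are given as CPM, the UMIs of a gene (unique molecular identifiers, counts of single RNA molecules) in a group of cells per 1000000 UMIs of the same cells. Apoe in endothelial cells stood at 1515 CPM for the library labelled Healthy, and at 15.4, 30.1 and 24.5 CPM in AS, MTZ-treated and MTZ-preventive. The diet and this difference in Apoe RNA cannot be told apart in any comparison that uses the library labelled Healthy. After filtering, 11121, 2160, 6796 and 14186 cells remained in the library labelled Healthy, AS, MTZ-treated and MTZ-preventive, with median depths of 1901, 1296, 1535 and 1640 UMIs per cell. Pairs of libraries shared 24 to 305 cell barcodes among those that passed the limits on quality. AS stood apart in its cell types: 21.9% of its cells were gated as neutrophils and 4.07% as smooth muscle, against at most 0.479% and at least 10.3% in the other 3.

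Leukocytes leave the blood in steps. E-selectin (Sele) and P-selectin (Selp) on activated endothelium catch passing cells and let them roll. The immunoglobulin-like proteins VCAM-1, ICAM-1 and ICAM-2 then hold them through integrins. PECAM-1 (Pecam1) and VE-cadherin (Cdh5) lie in the junctions between endothelial cells, where leukocytes pass through. ACKR1 carries chemokines across venular endothelium without signalling, and von Willebrand factor (Vwf), which binds platelets, is stored with P-selectin in the Weibel-Palade bodies of endothelial cells. MAdCAM-1 (Madcam1) is the addressin of gut-associated venules and binds integrin alpha4beta7. In atherosclerosis VCAM-1 and the selectins are known from endothelium over or near plaques. Several of these genes are known targets of nuclear factor kappa B (NF-kB).

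In the mouse genome build GRCm38.p6, which corresponds to the mm10 build in the processing notes, RefSeq places Vcam1 at chr3:116110020-116129688, Icam1 at chr9:21015940-21028814, Icam2 at chr11:106377656-106388139, Sele at chr1:164039614-164058487, Selp at chr1:164115264-164150026, Ackr1 at chr1:173331886-173333503, Vwf at chr6:125552948-125686679, Pecam1 at chr11:106654213-106715281, Cdh5 at chr8:104101613-104144504 and Madcam1 at chr10:79664559-79668542. Sele and Selp are neighbours on chromosome 1, and Icam2 and Pecam1 lie near each other on chromosome 11. RefSeq promoter sequences were matched for Icam1, Sele, Selp, Ackr1 and Madcam1, 5 of the 10 genes. The 250 bases before the start are shown for both selectins, which of the 9 genes with enough counts stood farthest above the library labelled Healthy in AS, and for Icam1, another gene of venous cells. Capitals mark matches to 3 motifs: GGANNTTCC, a kappa B-like sequence, and TGANTCA, an AP-1-like sequence, each searched on both strands, and TATAAA, the TATA box, on the gene's strand. They are given from 5′ to 3′ on the plus strand, from chr1:164047984-164048233 (Sele, at a start inside the gene's span), chr1:164115014-164115263 (Selp) and chr9:21015690-21015939 (Icam1).
Sele: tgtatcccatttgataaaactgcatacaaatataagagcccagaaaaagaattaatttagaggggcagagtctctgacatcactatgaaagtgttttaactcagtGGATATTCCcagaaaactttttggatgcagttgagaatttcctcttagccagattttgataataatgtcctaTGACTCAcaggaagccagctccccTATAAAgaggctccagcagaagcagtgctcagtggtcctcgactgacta
Selp: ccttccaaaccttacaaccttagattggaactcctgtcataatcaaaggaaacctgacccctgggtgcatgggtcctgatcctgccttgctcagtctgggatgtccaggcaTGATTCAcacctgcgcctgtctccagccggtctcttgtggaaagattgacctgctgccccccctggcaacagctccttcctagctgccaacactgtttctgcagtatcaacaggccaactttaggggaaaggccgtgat
Icam1: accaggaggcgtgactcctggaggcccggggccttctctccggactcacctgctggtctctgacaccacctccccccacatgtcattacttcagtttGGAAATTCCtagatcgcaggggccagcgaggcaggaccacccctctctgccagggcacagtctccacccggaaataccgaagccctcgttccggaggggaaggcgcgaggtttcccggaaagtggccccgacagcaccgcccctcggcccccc
The Sele window held all 3 motifs, with GGATATTCC at 145 to 137 bases before the start, TGACTCA at 73 to 67 and TATAAA at 49 to 44. The Selp window held TGATTCA at 139 to 133 bases before the start, and the Icam1 window held GGAAATTCC at 153 to 145. In Madcam1 GGAAAGTCC stood at 70 to 62 bases before the start, and in Ackr1 none of the 3 was found. Among 32851 RefSeq windows of the same length, 3.59% held the kappa B-like motif, 6.75% the AP-1-like motif and 7.59% the TATA box. A match is a run of letters, and no binding was measured.

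Endothelial cells were gated by markers that include none of the 10 genes. They numbered 750, 306, 1597 and 1552 in the library labelled Healthy, AS, MTZ-treated and MTZ-preventive, or 4205 of 34263 cells. By further markers 223, 97, 564 and 292 were arterial, 201, 119, 340 and 595 small vessel, 136, 40, 303 and 383 venous, 116, 17, 133 and 124 lymphatic, and the rest had no subtype. The 17 lymphatic cells of AS were too few for values. CPM values are compared within a gene only. Values in parentheses are exact 95% limits of counting error. Shares of cells with a UMI were taken after every cell was thinned to 1000 UMIs, since deeper cells show more genes. Pecam1 and Cdh5, which every vascular endothelial cell is known to express and which the gate did not use, were found in 55.3%, 54.9%, 50.03% and 51.7% and in 33.7%, 30.1%, 23.98% and 33.7% of gated cells, in the same order of libraries. In B and T cells Pecam1 was found in 2.48% to 6.40% and Cdh5 in 0.201% to 2.33%.

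Cells of other types give a background for the shares, although neutrophils are known to make some PECAM-1 themselves. AS had too few B and T cells for this, with 9 and 6. In its 473 neutrophils (median depth 1221 UMIs, against 1472 in its endothelial cells) the thinned share was 27.3% for Pecam1, 13.5% for Cdh5, 7.82% for Vwf, 4.44% for Selp, 0.634% for Sele and 1.48% for Ackr1, each below the share in endothelial cells of AS. Vcam1 was the exception: 10.4% (7.76 to 13.5) of AS neutrophils and 10.5% (7.26 to 14.4) of AS endothelial cells had a UMI. Some other AS cells had less Vcam1: 4.90% (3.10 to 7.32) of adipocytes, and 9.26 (1.91 to 27.1) CPM in the main macrophage cluster. AS endothelial cells had 108 CPM and the gated neutrophils 123 CPM. Others had more: the gated fibroblasts of AS, given below, and a small macrophage cluster found in AS alone, at 441 (273 to 674) CPM. The mix of genes differed between neutrophils and endothelial cells of AS, with 82 Vcam1 and 235 Pecam1 UMIs in the neutrophils and 56 and 463 in the endothelial cells. Conversely, 8 neutrophil markers summed to 2.65, 355, 9.64 and 25.6 CPM in the endothelial cells of the library labelled Healthy, AS, MTZ-treated and MTZ-preventive, with Csf3r, Cxcr2 and Mmp9 at 0 in all 4. The part of these RNAs in the results below was not tested.

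The selectin genes marked the venous cells and were lowest in the library labelled Healthy. Sele had 39, 30, 224 and 173 UMIs in the endothelial cells of the library labelled Healthy, AS, MTZ-treated and MTZ-preventive. In CPM, Sele stood at 14.8 (10.5 to 20.2) CPM for the library labelled Healthy, 57.9 (39.1 to 82.7) CPM for AS, 67.5 (59.0 to 77.0) CPM for MTZ-treated and 47.1 (40.3 to 54.7) CPM for MTZ-preventive. The limits of the library labelled Healthy lay below those of the other 3. AS overlapped both MTZ libraries, while MTZ-preventive lay below MTZ-treated. Selp stood at 104 (92.5 to 118) CPM for the library labelled Healthy, 226 (187 to 271) CPM for AS, 248 (231 to 266) CPM for MTZ-treated and 211 (197 to 227) CPM for MTZ-preventive. Again the library labelled Healthy was apart, AS overlapped both MTZ libraries, and MTZ-preventive lay below MTZ-treated. After thinning, 8.67%, 17.3%, 19.5% and 13.1% of endothelial cells had a Selp UMI and 2.0%, 6.54%, 5.95% and 3.67% a Sele UMI.

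Venous cells had the highest level of both selectin genes of the 4 subtypes in every library where they were given. Sele in venous cells was 48.9, 144, 153 and 108 CPM in the library labelled Healthy, AS, MTZ-treated and MTZ-preventive, against 4.86, 28.4, 44.5 and 23.5 CPM in arterial and 6.24, 5.09, 36.5 and 12.7 CPM in small vessel cells. The venous level of AS came from 9 UMIs in 40 cells, with limits of 65.9 to 274 CPM. Selp in venous cells was 267, 577, 528 and 464 CPM, in arterial cells 122, 193, 156 and 171 CPM and in small vessel cells 26.5, 71.2, 175 and 46.7 CPM. The arterial level of Selp was 0.296 to 0.456 times the venous level over the 4 libraries. Small vessel cells of MTZ-treated stood out, with Selp at 175 (143 to 213) CPM against 71.2 (38.9 to 119.5) CPM in AS and 46.7 (35.5 to 60.2) CPM in MTZ-preventive. Lymphatic cells had Selp at 15.5, 94.3 and 22.3 CPM in the library labelled Healthy, MTZ-treated and MTZ-preventive. In the 33 endothelial cells of AS without a subtype Sele was 355 (199 to 586) CPM and Selp 711 (479 to 1015) CPM, the highest levels of both in any endothelial group.

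Selp was found more often among cells with a Sele UMI than among cells without one, though most cells with either transcript had only 1 of them. Of endothelial cells with a Sele UMI after thinning, 26.7%, 50%, 47.4% and 50.9% also had a Selp UMI in the library labelled Healthy, AS, MTZ-treated and MTZ-preventive, against 8.30%, 15.0%, 17.8% and 11.7% of cells without one. These shares rest on 15, 20, 95 and 57 Sele-positive cells. Icam1 was found in 33.3%, 50%, 49.5% and 50.9% of the Sele-positive cells and in 17.96%, 23.4%, 24.4% and 24.7% of the others. Over 49 profiles of a cell class in a library with at least 50 cells, the genes whose log2 CPM followed Sele most closely, of 6010, were Selp (r = 0.86), Plvap (r = 0.82) and Gcc1 (r = 0.80). For Selp they were Vwf (r = 0.87), Apold1 (r = 0.87) and Plvap (r = 0.86). These correlations describe cell classes that share 4 libraries, and most of their range lies between endothelial and other cells. Plvap was also a gate marker.

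**Figure D1:**
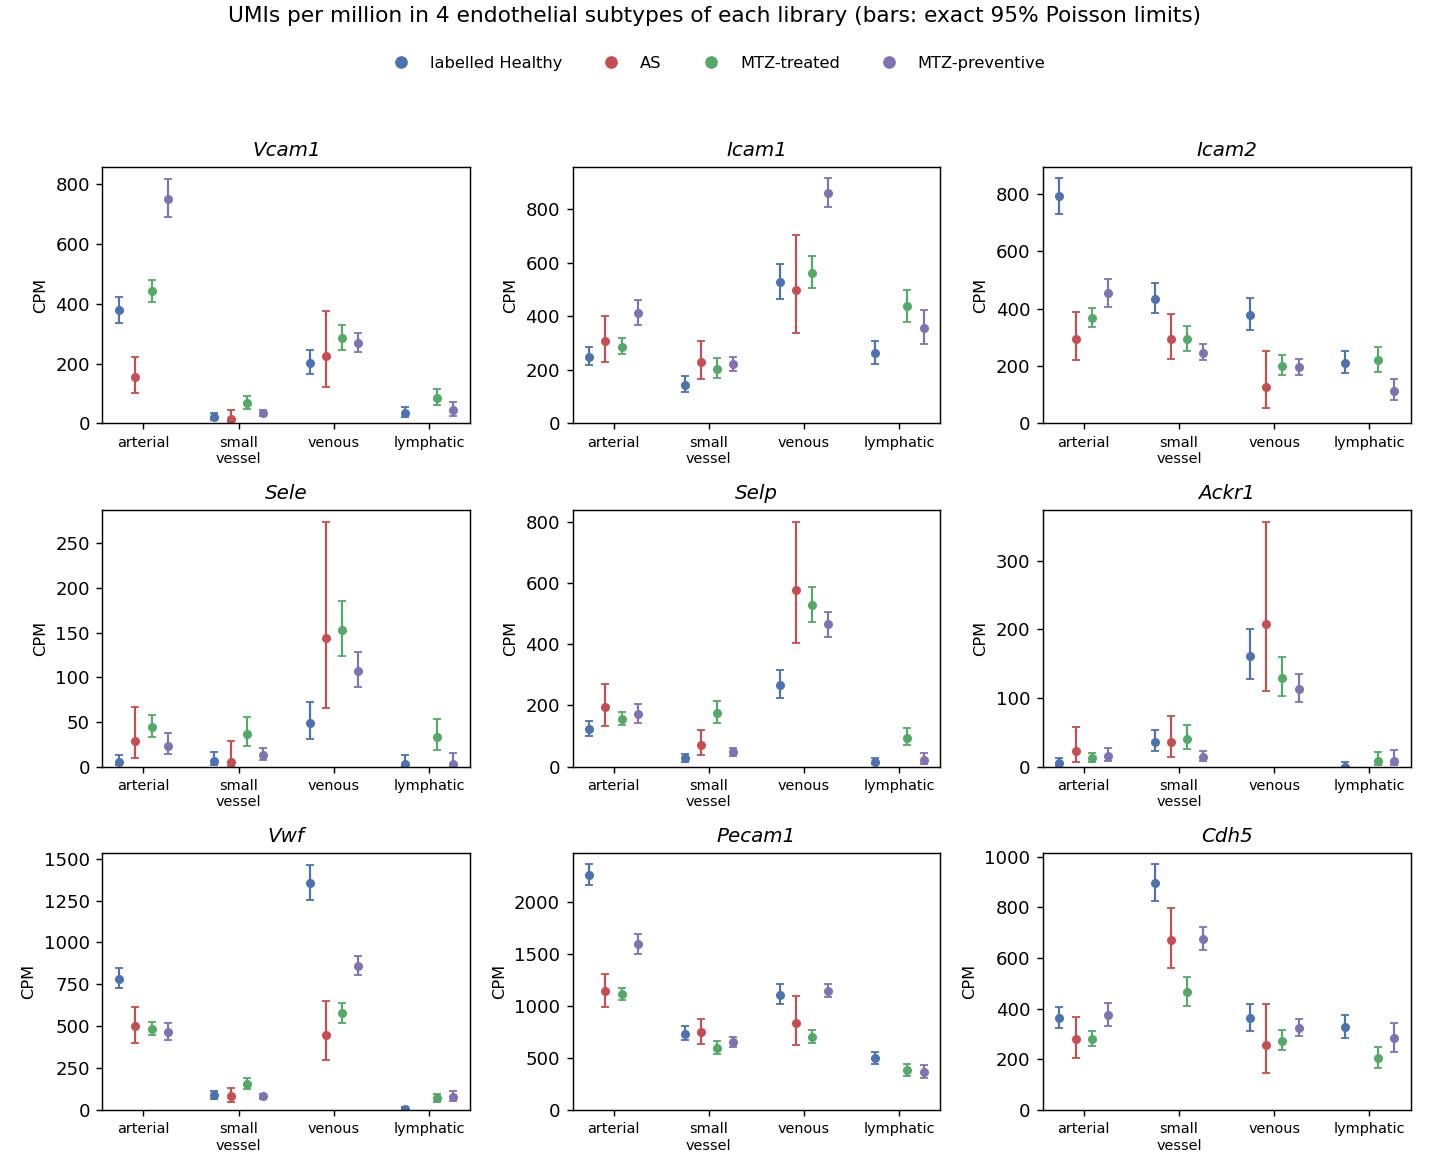
Level of 9 of the genes (y axes, CPM, from 0) in arterial, small vessel, venous and lymphatic endothelial cells (x axes) of the 4 libraries (colours), with points for summed counts and bars for exact 95% Poisson limits; AS has no lymphatic value. Sele, Selp and Ackr1 are highest in venous cells in all 4 libraries, and the arterial Vcam1 point of MTZ-preventive, 752 CPM, includes 1 cell with 289 of its 544 UMIs.

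Vcam1, the ligand of integrin alpha4beta1 on monocytes and lymphocytes, was a gene of arterial and venous cells and lay in few of them. In endothelial cells it was 173 (157 to 189) CPM for the library labelled Healthy, 108 (81.7 to 140.4) CPM for AS, 264 (247 to 282) CPM for MTZ-treated and 256 (240.1 to 273) CPM for MTZ-preventive, so AS was lowest and both MTZ libraries highest. Arterial cells had 378 (337 to 423) CPM for the library labelled Healthy, 154 (101 to 224) CPM for AS, 442 (406 to 481) CPM for MTZ-treated and 752 (689.7 to 817) CPM for MTZ-preventive, and venous cells 202, 224, 285 and 270.0 CPM in the same order. In small vessel cells it was only 20.3, 15.3, 67.7 and 33.2 CPM. The arterial level was 6.53 to 22.6 times the small vessel level over the 4 libraries, and it exceeded the venous level in 3 of 4, the exception being AS. The arterial level of AS rested on 27 UMIs in 97 cells.

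Single cells weighed heavily on Vcam1. In MTZ-preventive 1 arterial cell held 289 of the 941 Vcam1 UMIs of all endothelial cells. That cell had 20545 UMIs in all and was among the 2 deepest endothelial cells of its library. Without it the arterial level of MTZ-preventive was 363 (319 to 409.9) CPM in place of 752 CPM, and that of all endothelial cells 179 (165 to 193) CPM in place of 256 CPM. In the other libraries no endothelial cell held more than 5.36% of the Vcam1 UMIs. The 5% of endothelial cells with the most Vcam1 UMIs held 58.8%, 46.4%, 61.6% and 74.5% of them. With every cell thinned to 1000 UMIs, the share of endothelial cells with Vcam1 was 9.87% (7.83 to 12.2) for the library labelled Healthy, 10.5% (7.26 to 14.4) for AS, 14.7% (13.01 to 16.5) in MTZ-treated and 10.1% (8.66 to 11.7) in MTZ-preventive. These shares overlapped except for MTZ-treated, which lay above the library labelled Healthy and above MTZ-preventive. Among arterial cells the shares were 20.6% (15.5 to 26.5), 11.3% (5.80 to 19.4), 17.4% (14.3 to 20.8) and 15.1% (11.2 to 19.7), all overlapping.

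ICAM-1 and ICAM-2 bind the beta2 integrins of leukocytes, ICAM-1 being the inducible and ICAM-2 the constitutive form. Icam1 in endothelial cells was 279.6 (259.8 to 301) CPM for the library labelled Healthy, 319 (272 to 371) CPM for AS, 358 (338 to 379) CPM for MTZ-treated and 485 (462 to 508) CPM for MTZ-preventive. MTZ-preventive lay above the other 3, and MTZ-treated above the library labelled Healthy. After thinning, the share of cells with Icam1 was 18.3%, 25.2%, 25.9% and 25.6% in the same order, so that the 3 groups on the cholesterol diet were within 1 point of each other. Icam1 was highest in venous cells, at 527, 497, 563 and 861 CPM, and lowest of the 3 blood vessel subtypes in small vessel cells, at 143, 229, 205 and 221 CPM. In the library labelled Healthy its share in endothelial cells was near those of B cells, 16.5%, and T cells, 15.9%. In MTZ-preventive the endothelial share was above those of B cells, 19.5%, and T cells, 18.4%. Lymphocytes are known to express the gene themselves. Icam2 was 478 (452 to 505) CPM for the library labelled Healthy, 249 (208 to 296) CPM for AS, 278 (259.9 to 296) CPM for MTZ-treated and 253 (237 to 270.0) CPM for MTZ-preventive, with the library labelled Healthy above the other 3, which overlapped. In arterial cells it was 792, 296, 368 and 453 CPM, and the arterial level was the highest of the 4 subtypes in every library, though arterial and small vessel cells of AS, at 296 (221 to 388) and 295 (224 to 382) CPM, did not differ beyond counting error.

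Ackr1 was mostly a venous gene, and the counting limits of its level overlapped among the libraries. In endothelial cells it was 43.9 (36.3 to 52.6) CPM for the library labelled Healthy, 57.9 (39.1 to 82.7) CPM for AS, 50.03 (42.7 to 58.2) CPM for MTZ-treated and 49.0 (42.1 to 56.7) CPM for MTZ-preventive, with all limits overlapping, and its share after thinning was 3.07%, 5.23%, 5.45% and 4.38%. In venous cells it was 161 (127 to 200.4) CPM for the library labelled Healthy, 208 (111 to 356) CPM for AS, 129.7 (104 to 160.3) CPM for MTZ-treated and 113 (94.1 to 135) CPM for MTZ-preventive. In arterial cells it was 4.86, 22.8, 12.1 and 15.2 CPM, which is 0.0302 to 0.134 times the venous level, in small vessel cells 35.9, 35.6, 39.9 and 14.2 CPM, and in lymphatic cells 0, 8.20 and 8.38 CPM in the library labelled Healthy, MTZ-treated and MTZ-preventive. In the library labelled Healthy 1 small vessel cell held 17 of the 23 Ackr1 UMIs of that subtype, which without it stood at 9.44 (3.46 to 20.6) CPM. Cells with a Selp UMI had Ackr1 in 9.23%, 11.3%, 11.5% and 14.7% of cases, and cells without one in 2.48%, 3.95%, 3.97% and 2.82%. Its nearest genes over the 49 profiles were Selp (r = 0.80), Aqp1 (r = 0.79) and Vwf (r = 0.77).

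Vwf, stored with P-selectin, shared its vessels with Selp but not its order of libraries. It was 537 (509 to 565) CPM for the library labelled Healthy, 297 (252 to 348) CPM for AS, 363 (343 to 384) CPM for MTZ-treated and 405 (385 to 426) CPM for MTZ-preventive, highest in the library labelled Healthy. Venous cells had 1354 (1253 to 1461) CPM for the library labelled Healthy, 449 (298 to 648) CPM for AS, 577 (520.0 to 638) CPM for MTZ-treated and 861 (807 to 918) CPM for MTZ-preventive and arterial cells 784, 501, 483 and 467 CPM, while small vessel cells had 87.3, 81.4, 156 and 79.9 CPM and lymphatic cells 6.88, 67.7 and 78.2 CPM. Venous cells were above arterial cells in 3 of 4 libraries, the exception being AS. The arterial level was 3.09 to 8.98 times the small vessel level. Myrip, whose protein acts in the release of Weibel-Palade bodies, was the gene nearest to Vwf over the profiles, with r = 0.92, followed by Ptprb (r = 0.90) and Mmrn2 (r = 0.88), which were gate markers.

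Of the 10 genes Pecam1 was found in the largest share of endothelial cells in each library, and it was an arterial gene by level while Cdh5 was one of small vessels. Pecam1 was 1222 (1180.0 to 1265) CPM for the library labelled Healthy, 894 (814 to 979) CPM for AS, 781 (751 to 812) CPM for MTZ-treated and 959.7 (928 to 992) CPM for MTZ-preventive. Its order followed the arterial cells, which had 2257, 1138, 1112 and 1592 CPM, and which were above venous cells in 4 of 4 libraries. Small vessel cells had 731, 743, 596 and 650.1 CPM. Cdh5 was 477 (451 to 504) CPM for the library labelled Healthy, 407 (354 to 466) CPM for AS, 292 (274 to 311) CPM for MTZ-treated and 443 (422 to 465) CPM for MTZ-preventive, lowest in MTZ-treated. It was highest in small vessel cells in 4 of 4 libraries, at 897 (825 to 973) CPM for the library labelled Healthy, 672 (562 to 797) CPM for AS, 465 (411 to 525) CPM for MTZ-treated and 675 (630.1 to 721) CPM for MTZ-preventive, which was 1.70 to 2.62 times the venous level. Over the profiles Pecam1 lay closest to Icam2 (r = 0.93), Ptprb (r = 0.92) and Myct1 (r = 0.91), and Cdh5 to Adgrf5 (r = 0.96), Fgd5 (r = 0.95) and Cracr2b (r = 0.94). For Icam2 the nearest genes were Pecam1 (r = 0.93), Tmem88 (r = 0.91) and Tie1 (r = 0.89). For Vcam1 they were Emp1 (r = 0.88), Procr (r = 0.87) and Anxa3 (r = 0.86), and for Icam1 Tpm3 (r = 0.83), Tmem173 (r = 0.81) and Grasp (r = 0.81).

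Madcam1 was all but absent, with 10 UMIs in endothelial cells and 18 in all cells. In AS 7 UMIs lay in 3 cells, or 13.5 (5.43 to 27.8) CPM, and in MTZ-preventive 3 UMIs in 2 cells, or 0.817 (0.168 to 2.39) CPM. All were small vessel cells. The library labelled Healthy and MTZ-treated had 0 UMIs in endothelial cells, which allows up to 1.14 and 0.904 CPM if 3 UMIs could have been missed. By exact limits AS had at least 7.35 times the level of the library labelled Healthy, and MTZ-treated at most 0.108 times that of AS. The difference rests on 3 cells, and without the one with the most UMIs AS had 7.75 (2.11 to 19.8) CPM. Glycam1, a sialomucin of high endothelial venules, the vessels of lymph nodes, had 2, 18, 48 and 6 UMIs in endothelial cells of the 4 libraries, in none of the cells with Madcam1. The defining enzyme gene of those vessels, Chst4, was at 0 in 3 libraries and had 1 UMI in MTZ-treated. Madcam1 failed the filter of a mean of 20 CPM, so the counts below are over 9 of the 10 genes.

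The comparison of AS with the library labelled Healthy takes the cholesterol diet and the difference in Apoe RNA together, which cannot be told apart. Sele and Selp were higher in AS, by a ratio of 3.92 (2.35 to 6.48) and 2.16 (1.73 to 2.69). Icam2 was lower, at 0.521 (0.431 to 0.625), as were Vwf at 0.554 (0.466 to 0.655), Vcam1 at 0.627 (0.466 to 0.828), Pecam1 at 0.732 (0.662 to 0.807) and Cdh5 at 0.854 (0.734 to 0.989). Icam1 at 1.14 (0.956 to 1.35) and Ackr1 at 1.32 (0.852 to 1.99) had limits that include 1. With cells thinned to 1000 UMIs the Icam1 ratio was 1.44 (1.12 to 1.86), whose limits exclude 1, while those of Vcam1, 0.919 (0.608 to 1.36), and Cdh5, 0.947 (0.766 to 1.16), included 1. By a ratio of at least 2 of CPM plus 1, 2 of 9 genes were higher and 0 lower in AS, where 2.96% of 5904 genes with a mean of at least 20 CPM were higher and 6.54% lower, 9.5% in all. No test stands behind these calls. The call of Sele held in 15 of 15 alternative settings and that of Selp in 14, the exception being a gate of at least 5 endothelial markers, where its log2 ratio was 0.88. Icam2 was below 0 on the log2 scale in 15 of 15, between -1.06 and -0.28. Ackr1 was above 0 in 15 of 15, between 0.27 and 1.32. With looser limits on cells, which admit cells from 500 UMIs and up to 20% mitochondrial UMIs, Vcam1, Vwf and Pecam1 were higher in AS, with log2 ratios of 0.39, 0.53 and 0.44. Cdh5 turned in endothelial clusters, with a log2 ratio of 0.06.

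Within subtypes the selectin difference was present in venous cells, where AS was 2.95 (1.21 to 6.58) times the library labelled Healthy for Sele and 2.16 (1.45 to 3.15) times for Selp. In arterial cells the ratios were 5.85 (1.26 to 29.5) and 1.59 (1.04 to 2.37), from 5 and 4 Sele UMIs and 34 and 100 Selp UMIs. In small vessel cells Selp was 2.69 (1.23 to 5.79) times as high, and Sele had 1 UMI against 4. With cells thinned to 1000 UMIs the venous ratios were 4.76 (1.30 to 19.0) for Sele and 1.92 (1.08 to 3.32) for Selp. The lower Icam2 of AS was found in arterial cells at 0.374 (0.276 to 0.496) and in venous cells at 0.339 (0.144 to 0.681), and after thinning at 0.351 (0.213 to 0.552) and 0.385 (0.135 to 0.895). Venous Vwf was 0.331 (0.219 to 0.483) and after thinning 0.457 (0.282 to 0.709). The arterial Vwf ratio of 0.638 (0.505 to 0.799) became 0.958 (0.697 to 1.30) after thinning. Arterial Vcam1 was lower in AS, at 0.406 (0.263 to 0.603) and at 0.452 (0.222 to 0.848) after thinning.

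**Figure D2:**
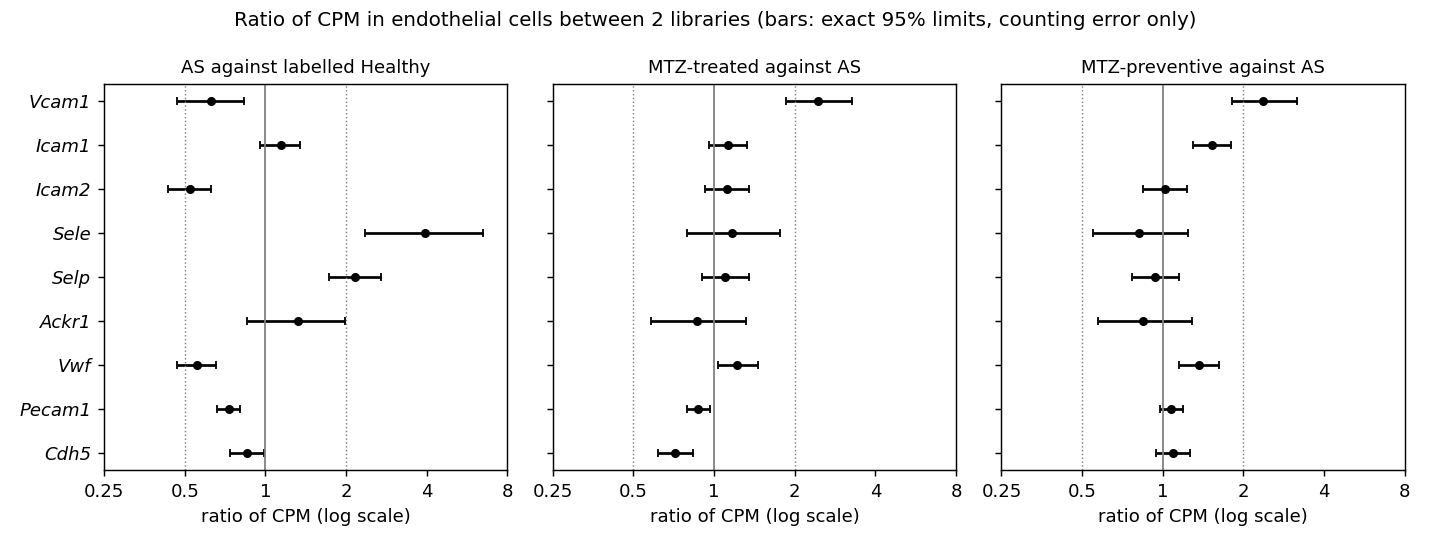
Ratio of CPM in endothelial cells (x axes, log scale) for 9 genes (y axis) in the 3 comparisons, with bars for exact 95% limits of counting error; the solid line is a ratio of 1 and the dotted lines 0.5 and 2. Sele and Selp lie to the right of 2 in AS against the library labelled Healthy, and Vcam1 alone does so in both comparisons with AS.

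MTZ given from week 13 was compared with AS. Vcam1 was higher in MTZ-treated, by a ratio of 2.44 (1.86 to 3.26), and was the only one of 9 genes called, where 2.93% of 5904 genes were called higher and 3.78% lower, 6.71% in all. Vwf was higher by 1.22 (1.03 to 1.45). Cdh5 and Pecam1 were lower, at 0.717 (0.617 to 0.836) and 0.874 (0.791 to 0.967). For Sele the ratio was 1.17 (0.794 to 1.77), for Selp 1.10 (0.904 to 1.34), for Icam1 1.12 (0.954 to 1.33), for Icam2 1.11 (0.926 to 1.35) and for Ackr1 0.864 (0.583 to 1.32), all with limits that include 1. The selectin genes, higher in AS than in the library labelled Healthy, were thus at ratios of which the limits allow between 0.794 and 1.77 times the AS level for Sele and between 0.904 and 1.34 times for Selp. Under the alternatives Sele stayed above a ratio of 1 in 10 of 15, Selp in 11 and Vwf in 12, while Cdh5 and Pecam1 stayed below 1 in 15 of 15. After thinning, the Vwf ratio was 0.907 (0.738 to 1.12). The call of Vcam1 depended on the processing. Its log2 ratio of 1.28 became 0.62 with the mean over cells, 0.27 with looser limits and 0.88 in endothelial clusters. It became 0.86 with each library weighted to the subtype shares of all gated endothelial cells, and 0.76 with thinned cells. All were under the threshold of 2-fold but above 0.

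By subtype, Vcam1 of MTZ-treated was 2.88 (1.95 to 4.40) times AS in arterial cells, 2.11 (1.17 to 4.17) after thinning, and 4.44 (1.41 to 22.4) times in small vessel cells, where AS had 3 UMIs. In venous cells the ratio was 1.27 (0.739 to 2.37). Selp of small vessel cells was 2.46 (1.40 to 4.66) times AS, 2.49 (1.23 to 5.69) after thinning, while in venous cells it was 0.915 (0.648 to 1.33). The lower Cdh5 lay in small vessel cells, at 0.693 (0.560 to 0.860), and was 1.01 (0.747 to 1.39) in arterial cells. Smooth muscle markers were higher in the endothelial cells of MTZ-treated, summing to 1228, 1915, 3368 and 1811 CPM in the library labelled Healthy, AS, MTZ-treated and MTZ-preventive, and fibroblast markers to 947, 1251, 1407 and 1085 CPM. Adipocyte markers, a list that includes Fabp4, gave the largest sums of the 3, at 11991, 14111, 6967 and 15427 CPM. Plin1 was at 0 in AS, and the sum was lower in MTZ-treated than in AS. Gated adipocytes made up 0.656%, 20.8%, 0.780% and 17.4% of cells in the same order of libraries. Whether the UMIs of these 3 marker lists came from the named cell types, and their part in the endothelial values, was not tested.

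MTZ given for all 24 weeks was compared with the same AS library, so that both MTZ comparisons share it. Vcam1 was again the only one of 9 genes called, higher by a ratio of 2.37 (1.81 to 3.16), where 3.88% of 5904 genes were called higher and 1.61% lower, 5.49% in all. Icam1 was higher by 1.52 (1.30 to 1.80) and Vwf by 1.36 (1.15 to 1.62). The limits of the other 6 included 1: Sele 0.813 (0.550 to 1.24), Selp 0.935 (0.769 to 1.15), Ackr1 0.846 (0.573 to 1.29), Icam2 1.02 (0.845 to 1.23), Pecam1 1.07 (0.974 to 1.19) and Cdh5 1.09 (0.942 to 1.26). Thinning changed this reading for both selectin genes, with ratios of 0.504 (0.319 to 0.818) for Sele and 0.759 (0.592 to 0.983) for Selp, whose limits exclude 1. Thinned ratios of Icam1, 1.23 (0.991 to 1.53), Vwf, 0.937 (0.763 to 1.16), and Vcam1, 1.29 (0.907 to 1.89), had limits that include 1. The Vcam1 call was lost without the cell that held 289 of its UMIs, together with the top cell of each other gene in each library, with a log2 ratio of 0.62 in place of 1.24. It was also lost with the mean over cells (0.24), looser limits (0.11), endothelial clusters (0.97) and thinned cells (0.37). For Icam1 the log2 ratio lay between 0.22 and 0.74 over the alternatives and was above 0 in 15 of 15. Vwf was above 0 in 14 of 15. Sele was below 0 in 15 of 15, between -0.97 and -0.10. Venous Icam1 was 1.73 (1.21 to 2.57) times AS, and 1.53 (0.964 to 2.59) after thinning.

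**Figure D3:**
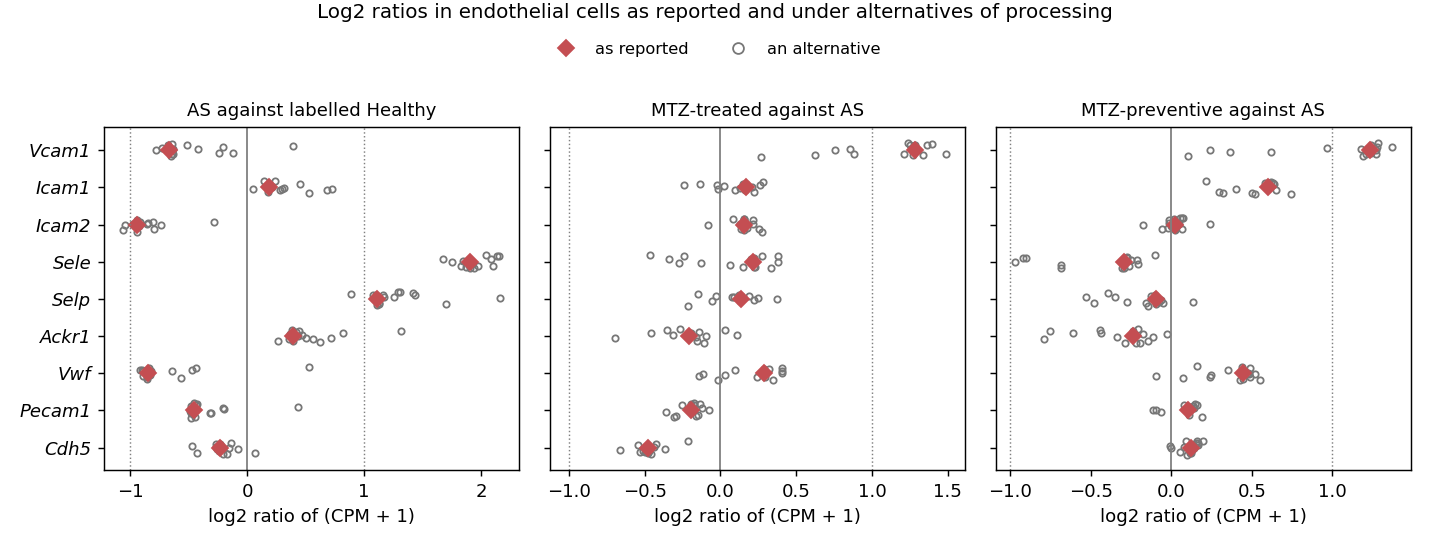
Log2 ratio of CPM plus 1 in endothelial cells (x axes) for 9 genes (y axis) in the 3 comparisons, as reported (diamonds) and under 15 alternative settings (circles, spread vertically for sight); dotted lines mark a 2-fold difference. Sele and Selp of AS against the library labelled Healthy stay above 0, with 1 Selp value under 1, while Vcam1 against AS runs from 0.27 to 1.49 for MTZ-treated and 0.11 to 1.37 for MTZ-preventive.

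Other genes of the same pathways were read as lists, with genes of a mean of at least 20 CPM counted at the same 2-fold rule. Over all 5904 genes this rule called 9.5% in AS against the library labelled Healthy, 6.71% in MTZ-treated against AS and 5.49% in MTZ-preventive against AS. The counts in each list below are to be read beside these shares. Of 17 other endothelial adhesion and junction genes, 1 was higher and 3 lower in AS than in the library labelled Healthy. Mcam, an adhesion molecule also of smooth muscle and pericytes, was 143 against 62.1 CPM, a ratio of 2.30 (1.73 to 3.05). Ctnnb1 (beta-catenin, which links VE-cadherin to the cytoskeleton) was lower, at 0.432 (0.331 to 0.554), and so were Cd99l2, at 0.444 (0.186 to 0.911), and Ptprb, a phosphatase that binds VE-cadherin and one of the gate markers, at 0.494 (0.422 to 0.576). In MTZ-treated 0 were higher and 2 lower than in AS, Mcam at 0.399 (0.303 to 0.529) and Esam, a junction protein of endothelium and platelets, at 0.437 (0.391 to 0.489). In MTZ-preventive 0 were higher and 1 lower, Mcam at 0.490 (0.377 to 0.643). The median log2 ratio of the list was -0.19, -0.23 and 0.17 in the 3 comparisons, beside -0.06, -0.04 and 0.03 over the 5904 genes.

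Of 13 NF-kB feedback and target genes, Ccl2, the chemokine that draws monocytes, was the only one called in any comparison. Over all 5904 genes the shares called were 9.5%, 6.71% and 5.49% in the 3 comparisons. It was 56.0 against 116 CPM in AS and the library labelled Healthy, a ratio of 0.484 (0.318 to 0.709). Against AS it was higher in MTZ-treated, by 4.39 (3.03 to 6.59), and in MTZ-preventive, by 2.73 (1.88 to 4.12). Nfkbia, the inhibitor that NF-kB itself induces, was 1.55 (1.45 to 1.65) times as high in AS as in the library labelled Healthy, and Relb 1.58 (0.917 to 2.60). Against AS, Nfkbia was 0.743 (0.699 to 0.789) and Tnip1 0.529 (0.309 to 0.951) in MTZ-treated. Cxcl1 was 1.92 (1.43 to 2.63) in MTZ-preventive against AS. The list's medians were 0.25, -0.26 and -0.04. Of 9 flow-responsive genes 0 were called in AS against the library labelled Healthy, with Thbd (thrombomodulin) at 0.582 (0.398 to 0.827) and Klf4, a transcription factor induced by laminar flow, at 0.695 (0.614 to 0.784). In MTZ-treated 1 was higher than in AS, Edn1 (endothelin 1) at 2.11 (1.65 to 2.72), with Nos3 (endothelial nitric oxide synthase) at 0.590 (0.456 to 0.770) and Klf4 at 1.59 (1.42 to 1.80). In MTZ-preventive 0 were called, with Thbd at 1.67 (1.18 to 2.43), Edn1 at 1.62 (1.27 to 2.09) and Klf4 at 1.59 (1.41 to 1.79). The medians were -0.33, 0.44 and 0.16.

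Of 7 Weibel-Palade body genes, Plat (tissue plasminogen activator) was higher in AS than in the library labelled Healthy, at 2.55 (1.64 to 3.91). No gene of this list was called in either comparison with AS, where Plat was 0.753 (0.518 to 1.12) in MTZ-treated and 0.597 (0.409 to 0.895) in MTZ-preventive. The list's medians were -0.55, -0.09 and 0.43. Of 12 genes for the leukocyte ligands of these adhesion molecules, 2 (Itgb1 and Glg1) passed the filter in endothelial cells, and of 9 sialomucin and enzyme genes of high endothelial venules 2 (Cd34 and Podxl). None of these was called in any comparison.

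Outside the gated endothelial cells Vcam1 and Icam1 were the most widespread of these genes by their share of UMIs. Gated endothelial cells held 64.8% of all Vwf UMIs, 62.8% of Cdh5, 58.2% of Icam2, 57.0% of Selp, 56.6% of Sele, 55% of Pecam1 and 43.6% of Ackr1, but 38.5% of Vcam1 and 27.7% of Icam1. The rest includes cells of endothelial clusters that the gate left out. In the endothelial cluster led by Apoe and Slc9a3r2, only 79 of 643 cells were gated as endothelial. Of the 643 cells, 614 came from the library labelled Healthy and 0 from AS. The gate left out 542 of those 614, and their part in the comparison of these 2 libraries was not tested. Fibroblasts had Vcam1 at 78.3 (69.9 to 87.4) CPM for the library labelled Healthy, 239.7 (199 to 286) CPM for AS, 168 (156 to 179.8) CPM for MTZ-treated and 98.8 (91.1 to 107) CPM for MTZ-preventive. These levels came from different clusters in each library. Of the 205 gated fibroblasts of AS, 69 lay in a cluster led by S100a8 and S100a9 and held 69 of 123 Vcam1 UMIs, and in MTZ-treated 41 such cells held 307 of 790. In the library labelled Healthy 434 of 1551 lay in a fibroblast cluster without AS cells. Within the fibroblast cluster with the largest number of AS fibroblasts, 90 cells, Vcam1 was 36.9 (24.3 to 53.7) CPM for the library labelled Healthy, 102 (66.8 to 149.8) CPM for AS, 80.0 (69.7 to 91.6) CPM for MTZ-treated and 76.3 (65.8 to 88.1) CPM for MTZ-preventive. There the library labelled Healthy was below the other 3, which overlapped. Fibroblast Icam1 was 97.6, 85.7, 92.5 and 159 CPM, highest in MTZ-preventive, and Pecam1 89.7, 44.8, 85.5 and 71.0 CPM.

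Smooth muscle cells had Vcam1 at 26.2, 45.4, 52.4 and 33.7 CPM and Icam1 at 42.5, 55.5, 54.7 and 75.0 CPM. Macrophages of AS had Vcam1 at 88.6 (57.9 to 129.8) CPM, but 20 of the 26 UMIs lay in 25 cells of a cluster found in AS alone. In the main macrophage cluster gated macrophages had 4.27 (0.108 to 23.8) CPM for AS and 21.0 (9.08 to 41.5) CPM for MTZ-treated, with overlapping limits. B cells had 1.501 and 3.59 CPM in the library labelled Healthy and MTZ-preventive. Among clusters split by library, Vcam1 was highest in 2 small groups of cells outside the gate, singled out after their values were seen. In MTZ-treated 64 non-endothelial cells of a cluster led by S100a8, S100a9, Retnlg and Spp1 had 1171 (1054 to 1297) CPM, where 834 non-endothelial cells of that cluster in AS had 181 (157 to 208) CPM. In the library labelled Healthy 107 cells of a fibroblast cluster led by Sfrp4, Cytl1 and Postn had 1163 (990.2 to 1358) CPM.

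**Figure D4:**
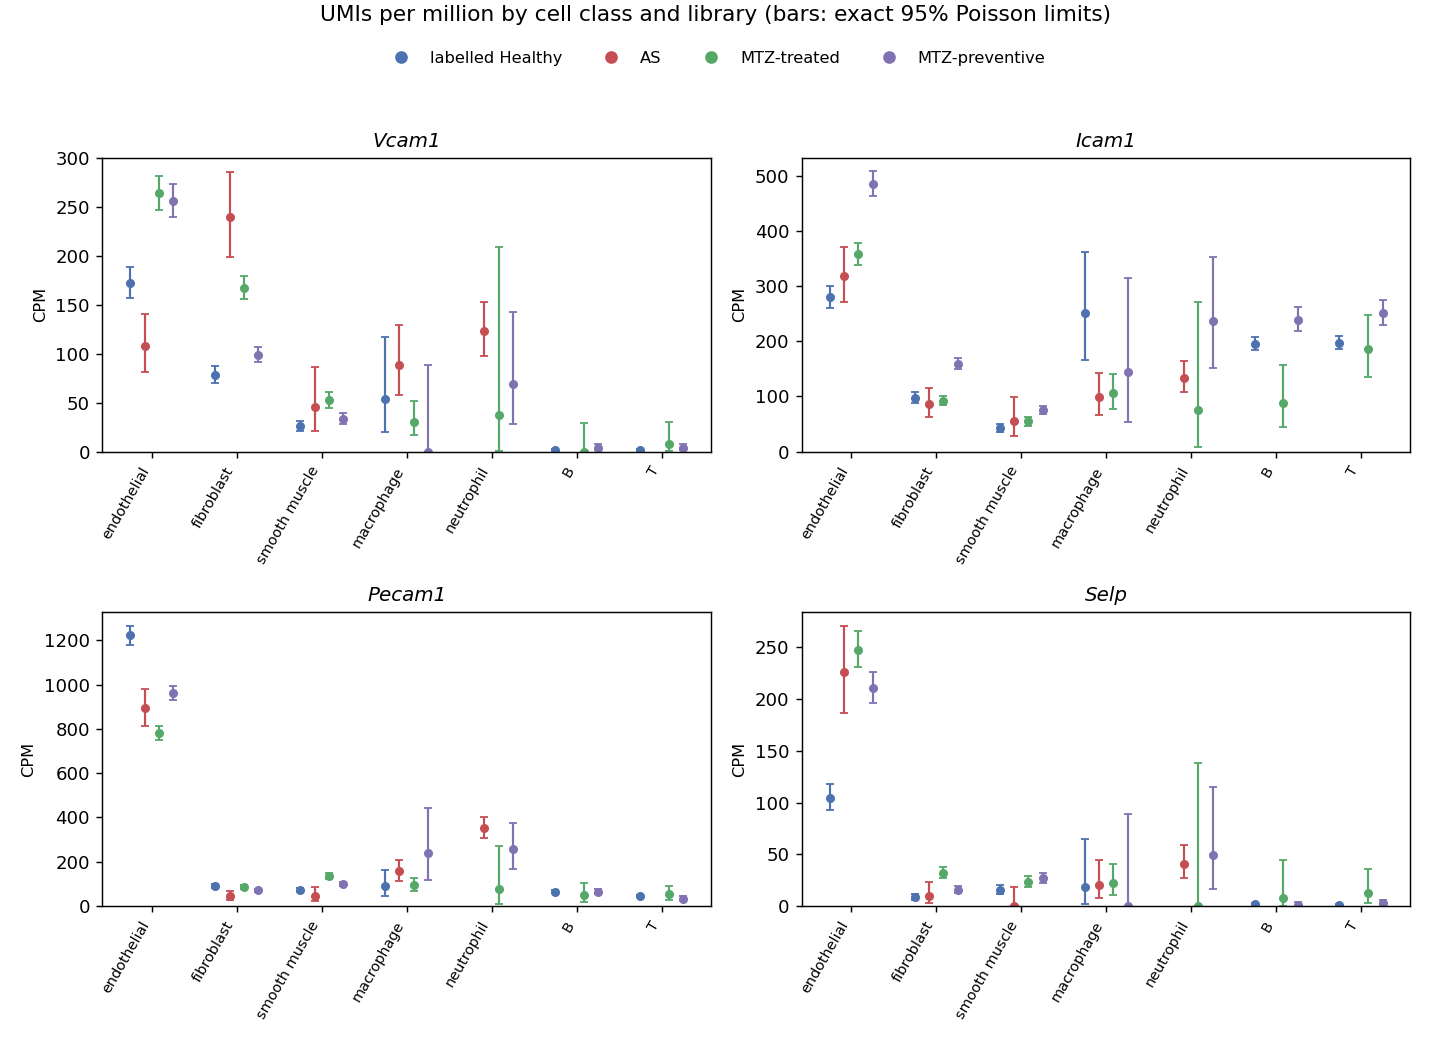
Level of Vcam1, Icam1, Pecam1 and Selp (y axes, CPM, from 0) in 7 cell classes (x axes) of the 4 libraries (colours), with bars for exact 95% Poisson limits; a missing point is a class with fewer than 20 cells in that library. Pecam1 and Selp are highest in endothelial cells in all 4 libraries, while Vcam1 of AS is highest in gated fibroblasts, at 239.7 CPM, of which many lie in a cluster led by S100a8 and S100a9, and Icam1 reaches 239 and 252 CPM in B and T cells of MTZ-preventive.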

How the data were processed

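Single-cell gene expression was measured by 10x libraries of pooled aortas, 1 per group. The authors aligned and counted reads with Cell Ranger 5.0.0 and STAR on mm10, per the submitters' processing notes, and deposited raw counts of UMIs per gene and cell barcode (21857, 6908, 20938 and 23963 barcodes with 42235505, 7617682, 26196680 and 50769911 UMIs in the library labelled Healthy, AS, MTZ-treated and MTZ-preventive). Receptor libraries were not used here.

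Barcodes were kept by the limits of the study's methods (more than 200 genes, more than 1000 UMIs, log10 genes over log10 UMIs above 0.7, under 10% mitochondrial and under 5% red blood cell UMIs), and doublets called by simulation, 0.8% per 1000 cells, were removed. A cell was gated to the class whose markers stood highest by a z-score, with at least 3 of 20 pan-endothelial markers for endothelial cells and at least 2 subtype markers for a subtype. The scoring rule was set after the files were read. Clusters (Leiden, resolution 1, 30 components, 2000 variable genes, without the 10 genes) served as an alternative, and 90.5% of gated cells lay in clusters named endothelial. Each class was summed to 1 count per gene and scaled to CPM, with Poisson limits, Clopper-Pearson limits for shares and conditional binomial limits for ratios, all exact, at 95% and for counting error only. A gene was called at a ratio of CPM plus 1 of at least 2 or at most 0.5, with no test, since each group is 1 library. Values were given for at least 20 cells. The genes and lists were chosen with earlier results of these data known, and the named genes were the 10, the gate markers, Apoe, the 3 of each list with the largest ratio in a comparison and the 3 nearest to each of the 10. Of 16 alternatives, 2 were added after the data had been seen. The ratio limits, calls and gate were tried on data simulated with counting error alone, the cells being drawn from the summed profile of each gated class. Such data cannot show the effect of single cells with many UMIs or of RNA from other cells. The gate called 80% of the simulated endothelial cells endothelial. The result of 1 listed gene is not reported here. Analyses used leidenalg 0.10.2, igraph 0.11.9, scikit-learn 1.9.0, pandas 2.3.3, scipy 1.17.1 and numpy 2.4.6 in Python 3.11.15, and edgeR 4.0.16 (TMM factors) in R 4.3.3.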

Additional observations from a re-analysis of the deposited data

How the results depend on the processing

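No paired analysis was possible because each group is 1 library and the labels give no shared replicate numbers. No result changed direction while called. Of the values of single genes under the alternatives, 387 stayed within their counting limits and 63 moved beyond them. In AS against the library labelled Healthy, the count of 2 genes called became 1 with at least 5 endothelial markers. At their farthest over the settings, the log2 ratios of Ackr1 and Icam2 were 1.32 and -1.06, which is past the 2-fold threshold. In MTZ-treated against AS the count of 1, which is Vcam1, became 0 with the mean over cells, looser limits on cells, endothelial clusters, subtype weights and thinned cells. In MTZ-preventive against AS the count of 1, again Vcam1, became 0 with the mean over cells, looser limits, endothelial clusters, thinned cells, and without the top cell of each gene. Among all genes, 561, 396 and 324 were called in the 3 comparisons, and without a filter on low values 4076, 3294 and 3382, since this setting adds genes of a few UMIs; with thinned cells, the last was 497. Scaling by TMM factors, or by totals that leave out hemoglobin, ribosomal protein and mitochondrial genes, changed no count of the 10 genes. Ratios that were not called changed sign in some settings, most often Icam2 in MTZ-preventive against AS, which kept its sign in 9 of 15. Depth limits AS most: its 306 endothelial cells held 517964 UMIs, so a count of 0 there allows 5.79 CPM. The cause of the other changes was not tested.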
